A study of Saccharomyces cerevisiae with 25 samples.

Results

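The small nuclear RNA (snRNA) and small nucleolar RNA (snoRNA) genes of budding yeast (Saccharomyces cerevisiae) were followed across wild type and strains labelled as null for a subunit of the Ccr4-Not complex. The members are the probe sets that the platform annotation gives to 1 gene whose symbol begins with SNR and a digit. There were 63 such probe sets for 61 genes, out of 6504 probe sets with 1 gene symbol and 9275 probe sets in all. By textbook class, 4 probe sets read snRNAs, 42 read box C/D snoRNAs (40 genes) and 17 read box H/ACA snoRNAs, and the RefSeq annotation lists 57 of the genes as snoRNA and 4 as snRNA. The snoRNAs SNR17B, SNR30 and SNR10 were not among the members.

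The snRNAs are the RNA core of the spliceosome, which removes introns. Box C/D snoRNAs mostly guide methylation of ribosomal RNA by the protein Nop1 and box H/ACA snoRNAs mostly guide pseudouridine formation by Cbf5, while a few, such as U3 (SNR17A) and U14 (SNR128), are needed to cut the ribosomal RNA precursor. Yeast makes them from genes of their own, from clusters cut out of 1 longer transcript, or from introns of host genes, and their mature forms mostly carry no poly(A) tail. The Ccr4-Not complex shortens poly(A) tails through its Ccr4 and Caf1 (gene POP2) subunits, and its Not proteins are also known for roles in transcription and ubiquitination.

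Total RNA was measured on 25 Affymetrix yeast arrays in 14 groups, with 1 array per sample. Exponential cultures in medium rich in glucose were taken from wild type, from null strains of caf1, ccr4, not2 and not3 and from a strain labelled caf130 null with 2 arrays each, and the not4 and not5 nulls with 1 array each. Wild type, the ccr4, not2 and not4 nulls and the strain labelled caf130 were also collected 30 min after the glucose had run out with 2 arrays each, and the caf1 null with 1 array. The labels describe replicates as prepared independently and give no strain background, marker or further allele for any group.

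The deleted gene was low in the strains labelled caf1, ccr4, not2, not3, not4 and not5, whereas CAF130 read 5.63 to 6.60 on the 4 arrays labelled caf130 and 5.30 to 5.76 in wild type. Those 4 arrays therefore go against their label and are called "labelled caf130" here. TRP1, a common selection marker, also differed: it read 2.64 to 3.14 in wild type and 2.09 to 2.68 in the not strains, but 7.88 to 8.89 in caf1, 6.73 to 7.94 in ccr4, 3.59 to 5.52 on the exponential arrays labelled caf130 and 7.27 to 7.69 on the depletion arrays labelled caf130. Its part in any difference between strains was not tested. All values are on a log2 scale, array medians lay between 5.2 and 5.37, and differences are in log2 units ± SE from 1 limma fit over all 25 arrays. A probe set is called when its Benjamini-Hochberg adjusted p over the 6504 probe sets is under 0.05, and a single array in a group borrows its spread from the other groups.

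In these bulk samples fewer cells and less RNA per cell cannot be told apart. The labels name only the standard Affymetrix labelling, the priming of which is not given in the sources used here, so the amount of a snoRNA and the fraction of it that was labelled cannot be told apart either. The probe sequences were not used here, and whether a probe set reads mature RNA, a precursor or both cannot be told apart. Every comparison with wild type in a condition shares the same wild-type arrays, so the comparisons below are not independent of each other.

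The members covered most of the measured range. The highest means over the 25 arrays belonged to SNR67 at 10.7, SNR61 at 10.3, SNR51 at 9.14, SNR8 at 9.13 and SNR77 at 9.07. The lowest belonged to SNR78 at 2.52, SNR65 at 2.66, SNR79 at 2.72 and the 2 probe sets of SNR62 at 2.82 and 2.94. These means rank probe sets and do not compare amounts between genes. The lower quartile of an array lay between 3.51 and 3.85, and 37 members stayed above it on every array, 24 fell below it on some arrays, and SNR65 and SNR78 lay below it on all 25. Of the 63 members, 62 (98.4%) were called in at least 1 of the 23 comparisons and 31 (49.2%) in at least 5, against 85.2% and 35.5% of all probe sets. SNR67 was called most often, in 15, followed by SNR128 in 11. SNR58 was the member called in none, with values from 4.25 to 5.56.

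**Figure D1:**
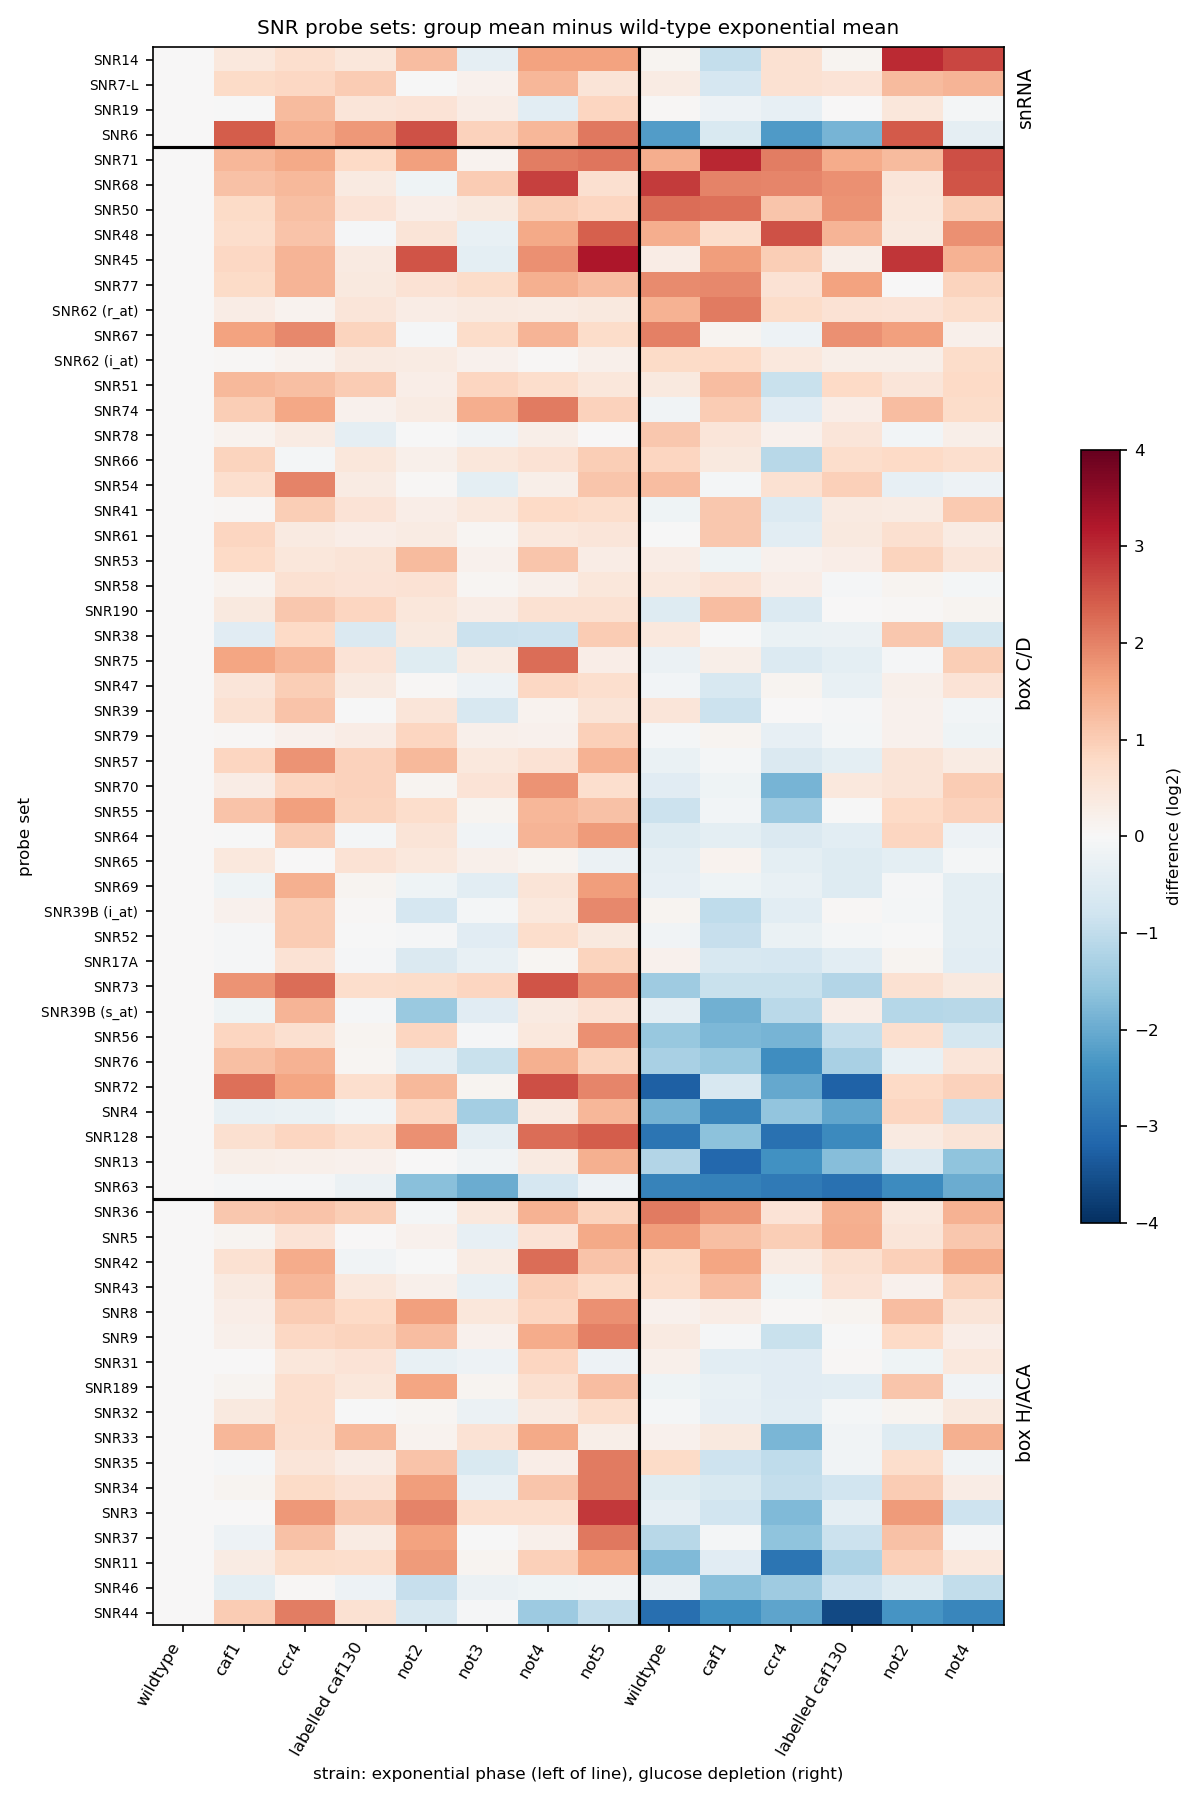
Group mean minus the wild-type exponential mean (log2, colour limited to 4 in either direction) for the 63 SNR probe sets in rows, ordered by class, and the 14 groups in columns. The ccr4 depletion column is mostly on the lower side. The exponential columns of caf1, ccr4, labelled caf130, not2, not4 and not5 are mostly on the higher side.

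In wild type the members split in their response to glucose depletion. SNR72, SNR44, SNR128 and SNR63 fell by about 3 log2 units, while SNR68, SNR50, SNR36, SNR67 and SNR77 rose by about 2 to 3. After depletion 12 members were higher and 13 lower, against 18.5% and 18.8% of all probe sets, so the 39.7% called here was close to the 37.3% called overall. The member median was -0.01. Of these calls, 8 of the 12 and 6 of the 13 were kept whichever of the 4 arrays was left out.

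The falling members came from several classes. SNR72, a methylation guide for large-subunit rRNA, read 6.85 and 6.60 in exponential phase and 3.46 and 3.44 after depletion, a change of -3.28 ± 0.49 (adjusted p = 3.46e-05). Both of its values after depletion lay below the lower quartile of their arrays. SNR44, a pseudouridine guide from an intron of the ribosomal protein gene RPS22B, read 8.76 and 8.53 and then 5.66 and 5.62 (-3.0 ± 0.32, adjusted p = 8.83e-07). U14 (SNR128) read 8.18 and 8.41 and then 5.51 and 5.22 (-2.93 ± 0.40, adjusted p = 1.13e-05). The leading members named in each comparison were picked among called members whose groups do not overlap. Their separation, here and below, therefore adds no support to the calls. The same holds for the statements on all called members. Every called member separated in every comparison between groups, and how many of all probe sets separate was not counted. SNR63, a large-subunit methylation guide, fell from 7.61 and 7.43 to 4.77 and 4.94 (-2.67 ± 0.36, adjusted p = 1.19e-05).

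The rising members were also box C/D and H/ACA guides. SNR68, a large-subunit methylation guide, read 5.12 and 4.27 in exponential phase and 7.43 and 7.57 after depletion (2.80 ± 0.41, adjusted p = 2.41e-05). SNR50, another large-subunit methylation guide, read 5.61 and 5.04 and then 7.45 and 7.66 (2.23 ± 0.31, adjusted p = 1.49e-05). SNR36, a small-subunit pseudouridine guide, read 4.74 and 4.53 and then 6.76 and 6.65 (2.07 ± 0.31, adjusted p = 3e-05). As for all 25 called members, these groups did not overlap. SNR67, which guides large-subunit methylation, rose from 9.57 and 9.97 to 11.77 and 11.81 (2.03 ± 0.28, adjusted p = 1.61e-05), and SNR77, which guides small-subunit methylation, rose from 8.14 and 8.22 to 10.00 and 10.17 (1.90 ± 0.42, adjusted p = 0.00136).

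In exponential phase the ccr4 null had higher values for snRNA and snoRNA probe sets of all 3 classes. The clearest were SNR44 at 2.04 ± 0.32, SNR67 at 1.92 ± 0.28 and SNR57, a small-subunit methylation guide, at 1.79 ± 0.31. In all, 20 members were higher and 0 lower, which is 31.7% of the members against 6.41% of all probe sets, of which 3.95% were called higher and 2.46% lower. The 20 were 12 of 42 box C/D, 7 of 17 box H/ACA and 1 of 4 snRNA probe sets, and the difference was above 0 for 60 of the 63. The member median was 1.0, where the median of all 6504 probe sets was -0.11.

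SNR44 read 10.80 and 10.57 in ccr4 against the wild-type values above (adjusted p = 0.000589), and SNR67 read 11.37 and 11.99 (adjusted p = 0.000322). SNR57 read 5.11 and 4.59 in ccr4 against 3.17 and 2.94 in wild type (adjusted p = 0.00151). It lay below the lower quartile of the array on 15 arrays, among them both of these wild-type arrays. As for all 20 called members, both ccr4 arrays lay above both wild-type arrays for these 3 genes. SNR73, a large-subunit methylation guide, read 7.98 and 7.69 against 5.66 and 5.55 (2.24 ± 0.46, adjusted p = 0.00585, from 0.00061 to 0.102 over the alternatives), but was not called without ccr4 replicate 1 (0.102) or wild-type replicate 2 (0.0619). SNR54, a small-subunit methylation guide, read 6.05 and 5.89 against 3.98 and 3.98 (1.99 ± 0.43, adjusted p = 0.00794, from 0.000204 to 0.108) and was not called without ccr4 replicate 1 (0.108), wild-type replicate 1 (0.0595) or wild-type replicate 2 (0.0631). The other 15 called members were higher by 0.84 (SNR9) to 1.73 (SNR3). The count rested on single arrays: it was 3 without ccr4 replicate 1, 17 without ccr4 replicate 2, 7 without wild-type replicate 1 or 5 where replicate 2 of wild type was left out, and SNR44, SNR67 and SNR57 were the 3 called in each case. Without the not2 and not4 depletion arrays it was 34.

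**Figure D2:**
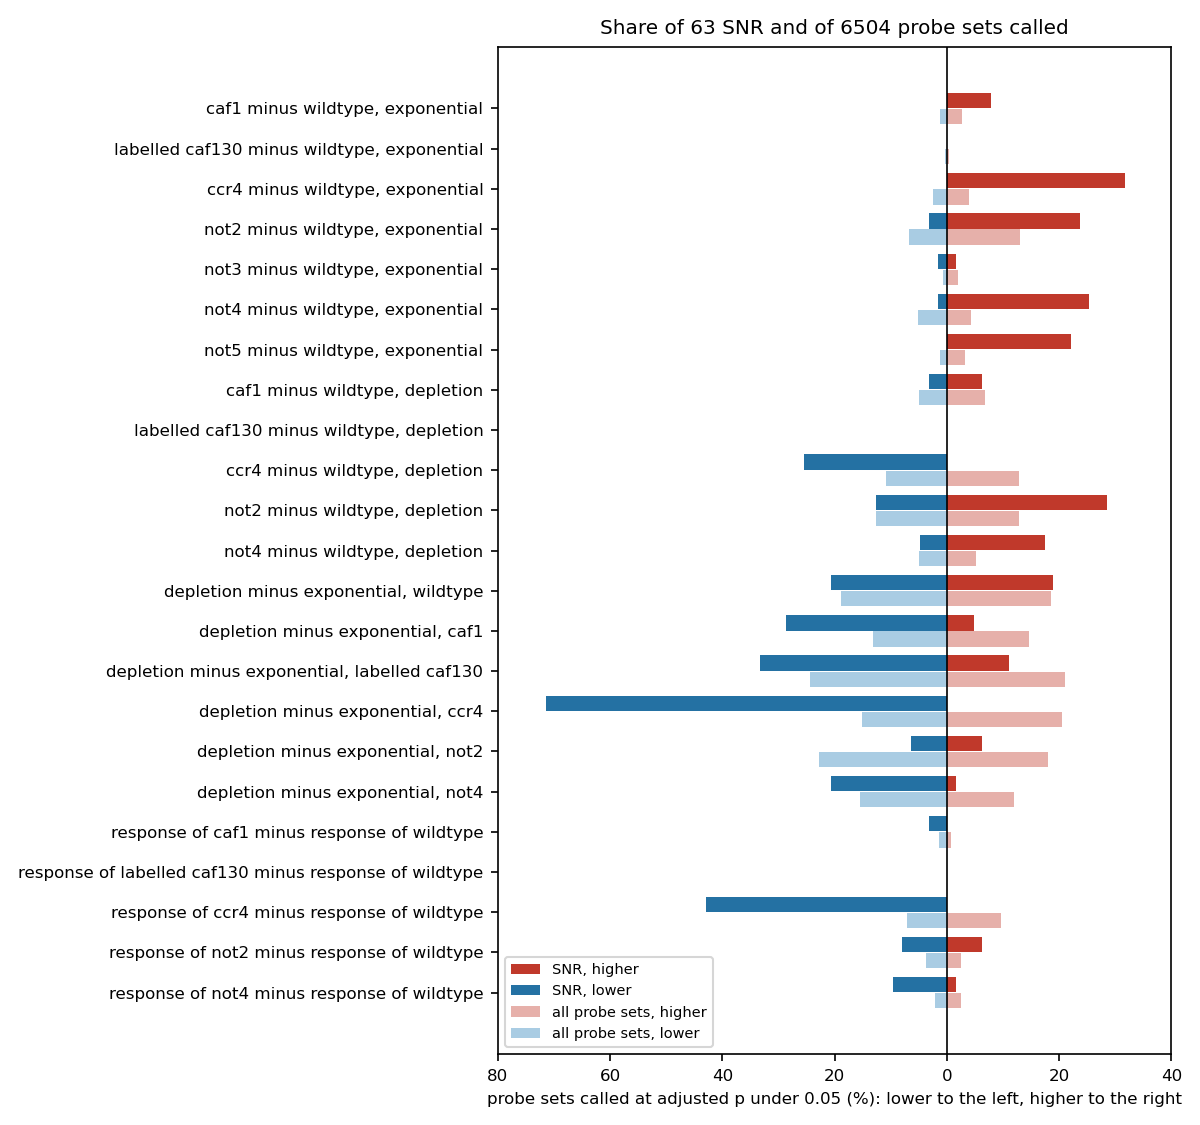
Share of the 63 SNR probe sets and of all 6504 probe sets called higher (to the right) or lower (to the left) in each of the 23 comparisons, in percent. The SNR share stands furthest above the share of all probe sets for higher calls in exponential ccr4 (31.7% against 3.95%) and for lower calls in the ccr4 depletion response (71.4% against 15.2%).

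After glucose depletion the ccr4 null had lower values than wild type for many of the same classes. SNR67 was lower by 2.24 ± 0.28 in log2 units, and SNR33, SNR66, SNR36 and SNR9 were also lower. Here 0 members were higher and 16 lower, 25.4% of the members, against 23.6% of all probe sets (12.8% higher and 10.8% lower), a called share near that of all probe sets. The 16 were 10 box C/D and 6 box H/ACA probe sets, 52 of the 63 differences were below 0, and the median was -0.40. Leaving out ccr4 replicate 1, ccr4 replicate 2, wild-type replicate 1 or wild-type replicate 2 gave 5, 5, 5 and 7 called, and the depletion arrays alone gave 10.

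SNR67 read 9.52 and 9.59 in ccr4 and 11.77 and 11.81 in wild type (fell by 2.24 ± 0.28, adjusted p = 4.23e-05). SNR33, a large-subunit pseudouridine guide, read 6.06 and 6.06 against 8.07 and 8.10 (-2.02 ± 0.41, adjusted p = 0.00198). SNR66, a large-subunit methylation guide, read 5.26 and 5.15 against 7.03 and 7.31 (-1.97 ± 0.41, adjusted p = 0.0025). As for all 16 called members, the arrays of the 2 strains did not overlap for any of these genes. SNR36 was likewise lower at 5.03 and 5.32 against 6.76 and 6.65 (-1.53 ± 0.31, adjusted p = 0.00184). SNR35, a small-subunit pseudouridine guide, read 3.26 and 3.34 against 5.15 and 4.98 (-1.77 ± 0.45, adjusted p = 0.00857, from 0.000132 to 0.0696 over the alternatives) and was not called without ccr4 replicate 1 (0.0557), ccr4 replicate 2 (0.0605) or wild-type replicate 1 (0.0696). Of the 20 members called higher in exponential ccr4 and the 16 called lower in depleted ccr4, 6 were in both lists.

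Within the ccr4 null, glucose depletion was followed by lower values for most members. SNR44, SNR76, SNR128, SNR6 and SNR11 each fell by more than 3 log2 units, and none was called higher. The 45 called lower were 71.4% of the members, against 35.8% of all probe sets (15.2% lower and 20.6% higher). They were 28 of 42 box C/D, 15 of 17 box H/ACA and 2 of 4 snRNA probe sets, 57 of 63 differences were below 0, and the median was -1.45. The highest difference was that of SNR48, a box C/D snoRNA, at 1.40 (adjusted p = 0.0542 by limma). Without any 1 of the 4 ccr4 arrays 33 to 37 members were called, 27 of them lower in every case, and without exponential replicate 2 or depletion replicate 2 there was 1 called higher.

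SNR44 went from 10.80 and 10.57 to 6.56 and 6.5 (-4.16 ± 0.32, adjusted p = 4.68e-07). SNR76, a large-subunit methylation guide, went from 7.66 and 7.61 to 3.89 and 3.68 (-3.85 ± 0.34, adjusted p = 1.15e-06). U14 (SNR128) went from 9.44 and 8.84 to 5.30 and 5.32 (-3.83 ± 0.40, adjusted p = 3.56e-06). The 4 arrays separated by condition in these 3 genes, as they did in all 45 called members. U6 (SNR6), the snRNA at the catalytic centre of the spliceosome, went from 9.01 and 8.64 to 4.91 and 5.25 (-3.75 ± 0.68, adjusted p = 0.000487), and SNR11, a large-subunit pseudouridine guide, went from 9.91 and 9.17 to 6.09 and 5.66 (-3.66 ± 0.44, adjusted p = 1.25e-05). All 13 members that fell in wild type were also called lower in ccr4. Of the 12 that rose in wild type, 10 were not called in ccr4 and 2 were called lower.

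The depletion response of ccr4 differed from that of wild type for 27 members, all lower in ccr4, which is 42.9% of the members against 16.7% of all probe sets (7.1% lower and 9.62% higher). The difference was below 0 for 62 of the 63 members, with a median of -1.38. SNR67 had the most negative difference, -4.15 ± 0.40 (adjusted p = 6.92e-06), having risen in wild type and fallen by 2.13 ± 0.28 in ccr4 (adjusted p = 3.16e-05). SNR3, a large-subunit pseudouridine guide, read 5.67 and 5.36 in exponential wild type and 5.21 and 5.08 after depletion, but 7.63 and 6.87 in exponential ccr4 and 3.72 and 3.78 after depletion. Its response was lower in ccr4 by 3.13 ± 0.58 (-3.13, adjusted p = 0.00248). SNR36 differed by -2.68 ± 0.43 (adjusted p = 0.00104), SNR77 by -2.68 ± 0.59 (adjusted p = 0.00587) and SNR33 by -2.67 ± 0.58 (adjusted p = 0.00555), and these 5 calls were kept whichever array was left out. Of the 27 calls 13 were kept in this way, and the lowest counts were 16 without ccr4 depletion replicate 1, 16 without ccr4 depletion replicate 2 and 15 without wild-type depletion replicate 1, while 44 were called without the not2 and not4 depletion arrays.

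**Figure D3:**
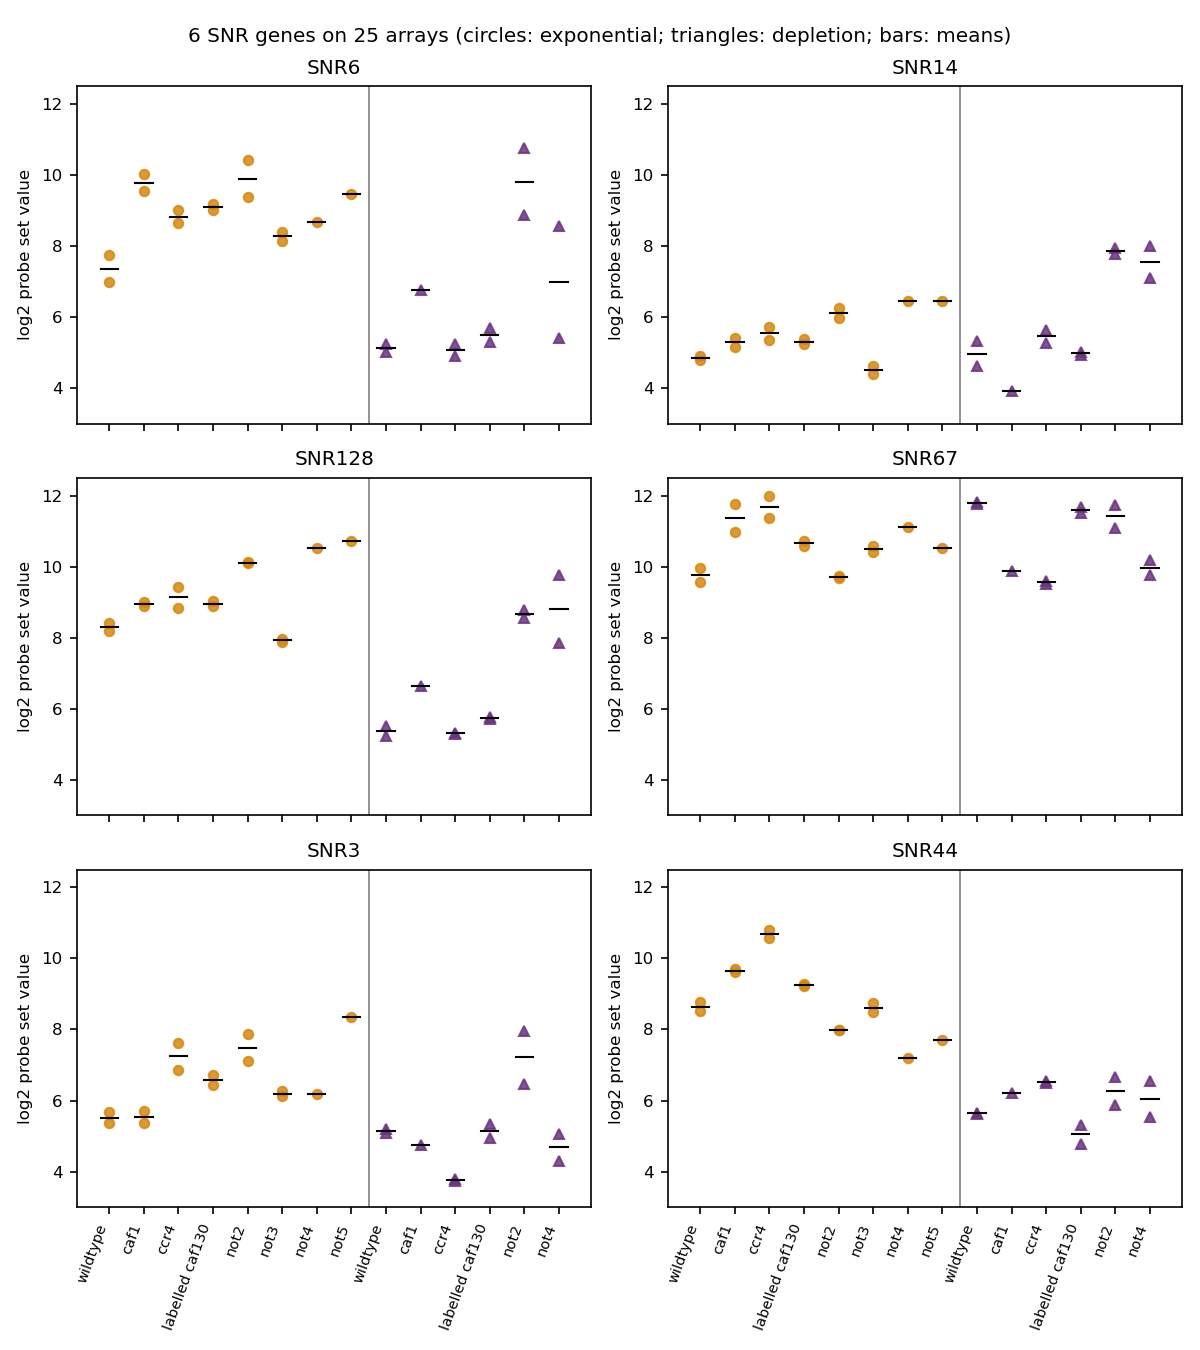
Log2 values of SNR6, SNR14, SNR128, SNR67, SNR3 and SNR44 on all 25 arrays, by strain, with circles for exponential arrays, triangles for depletion arrays and short bars for group means. SNR6, SNR128 and SNR44 are low in depleted wild type and ccr4, whereas SNR6 stays at 10.74 and 8.86 on the not2 depletion arrays.

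Of the 7 core protein genes of the same particles, all fell on depletion in wild type and 1 was called lower in ccr4, where 18.8% and 15.2% of all probe sets were called lower. Here and for the other gene lists, each gene is counted on its brightest probe set, whereas the shares beside them cover every tested probe set. In wild type all 4 box C/D core protein genes and all 3 box H/ACA core protein genes fell on depletion. NOP1, the methyltransferase, fell by 2.92 ± 0.30 (-2.92, adjusted p = 5.32e-07), NOP58 by 2.64 ± 0.39 (adjusted p = 2.72e-05), NOP56 by 2.59 ± 0.54 (adjusted p = 0.000834) and SNU13 by 1.5 ± 0.24 (adjusted p = 5.25e-05). GAR1 fell by 2.36 ± 0.43 (adjusted p = 0.000248), NHP2 by 2.27 ± 0.32 (adjusted p = 1.61e-05) and the pseudouridine synthase gene CBF5 by 2.02 ± 0.30 (adjusted p = 2.6e-05).

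In ccr4 no box C/D core protein gene was called on depletion by limma, although 1 of the 4 had an unadjusted p under 0.05, and their differences were -1.13 (NOP56), -0.56 (NOP58), -0.56 (NOP1) and -0.15 (SNU13). Of the H/ACA genes CBF5 fell by 1.07 ± 0.30 (adjusted p = 0.00928), but was not called without ccr4 exponential replicate 1 (0.0926) or ccr4 depletion replicate 2 (0.107), while NHP2 was at 0.57 and GAR1 at -0.05, neither called. After depletion, ccr4 had higher NHP2 (2.13 ± 0.32, adjusted p = 0.000189), NOP58 (2.03 ± 0.39, adjusted p = 0.00133), NOP1 (2.0 ± 0.30, adjusted p = 0.000192), GAR1 (1.94 ± 0.43, adjusted p = 0.00362) and SNU13 (1.35 ± 0.24, adjusted p = 0.00063) than wild type. NOP56 at 1.33 and CBF5 at 0.81 were not called. The response itself differed from wild type, upward, for NHP2 (2.83 ± 0.45, adjusted p = 0.000833) and NOP1 (2.36 ± 0.42, adjusted p = 0.00185) whichever array was left out.

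**Figure D4:**
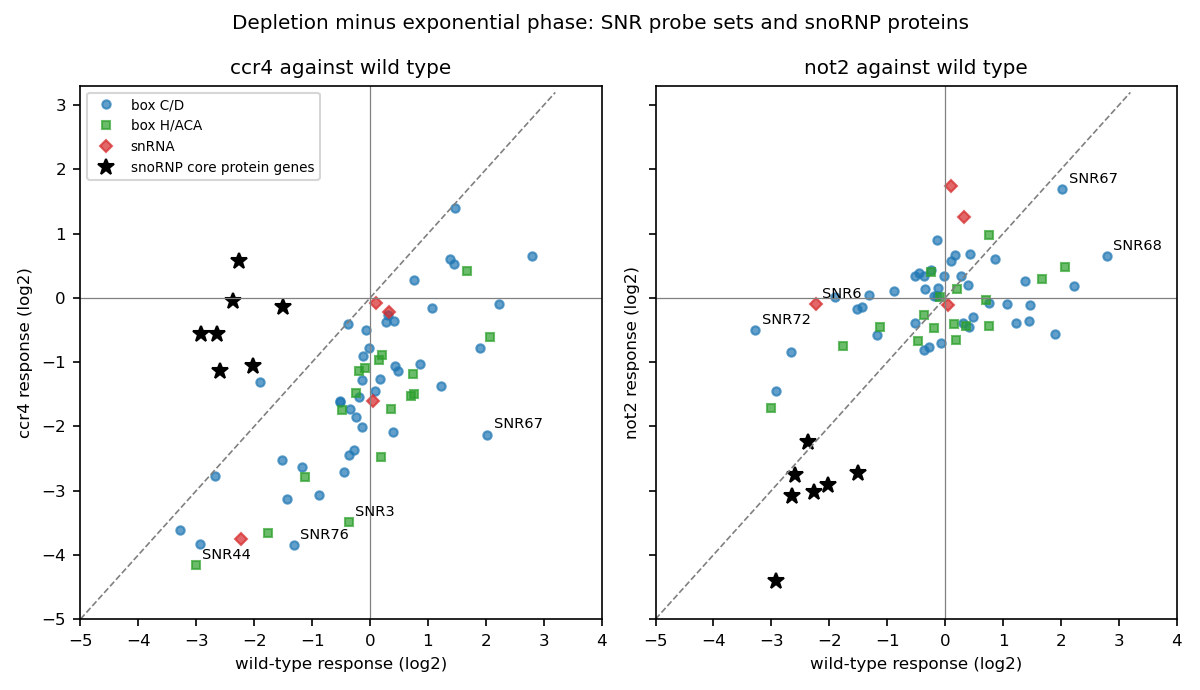
Depletion minus exponential difference (log2) in wild type on the horizontal axis against the same difference in ccr4 or in not2 on the vertical axis, for the SNR probe sets by class and the snoRNP core protein genes (stars), with a dashed line where the 2 are equal. In the ccr4 panel 62 of the 63 SNR points lie below the line and the stars of NHP2 and NOP1 lie above it.

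In exponential phase the not2, not4 and not5 nulls also had higher values for part of the set, with SNR45 and U14 (SNR128) among the called members of all 3. SNR45, which guides acetylation of small-subunit rRNA, read 5.09 and 5.22 in wild type, 7.24 and 8.10 in not2, 6.98 in not4 and 8.39 in not5. U14 read 8.18 and 8.41 in wild type, 10.13 and 10.09 in not2, 10.53 in not4 and 10.73 in not5. No array of the 3 strains overlapped wild type for either gene, nor for any other called member. U14 was higher by 1.82 ± 0.40 in not2 (adjusted p = 0.00419), by 2.23 ± 0.49 in not4 (adjusted p = 0.00875, from 5.8e-05 to 0.0547 over the alternatives, not called without wild-type replicate 1, 0.0547) and by 2.43 ± 0.49 in not5 (adjusted p = 0.00589, from 3.23e-05 to 0.0518 over the alternatives, not called without wild-type replicate 1, 0.0518).

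In not2, 15 members were higher and 2 lower, a called share of 27.0% against 19.8% of all probe sets (13.1% higher and 6.66% lower), and the median was 0.32. SNR45 had one of the largest increases, 2.51 ± 0.37 (adjusted p = 0.000198). SNR3 read 7.10 and 7.87 against 5.67 and 5.36 in wild type (1.97 ± 0.41, adjusted p = 0.00314, from 0.000175 to 0.0593, not called without not2 replicate 2, 0.0593). SNR11 read 10.17 and 10.82 against 8.65 and 8.94 (1.70 ± 0.44, adjusted p = 0.0114, from 0.000505 to 0.12, not called without not2 replicate 2, 0.12, or wild-type replicate 1, 0.0924). The 2 lower members were SNR63, at 5.73 and 5.96 against 7.61 and 7.43 (-1.68 ± 0.36, adjusted p = 0.00402), and the brighter SNR39B probe set, at 4.21 and 3.65 against 5.87 and 4.93 (-1.47 ± 0.45, adjusted p = 0.0281, from 0.00498 to 0.265, not called without not2 replicate 2, 0.187, or wild-type replicate 1, 0.265). Without not2 replicate 2, wild-type replicate 1 or wild-type replicate 2 the 17 calls became 8, 10 and 13, and without not2 replicate 1 they became 18.

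In not4, which has 1 exponential array, 16 members were higher and 1 lower, a called share of 27.0% against 9.44% of all probe sets (4.27% higher and 5.17% lower), with a median of 0.72. The higher members were 12 box C/D, 3 box H/ACA and 1 snRNA. SNR68 read 7.42 against 5.12 and 4.27 in wild type (2.72 ± 0.50, adjusted p = 0.00287) and SNR42, a large-subunit pseudouridine guide, read 6.89 against 4.67 and 4.63 (2.24 ± 0.46, adjusted p = 0.00626). SNR73 at 8.12 (2.52 ± 0.56, adjusted p = 0.0103) and SNR75 at 8.88 against 6.56 and 6.73 (2.23 ± 0.44, adjusted p = 0.00481), both large-subunit methylation guides from 1 cluster, were higher as well. The not4 array lay above both wild-type arrays in each of these genes, as in all 16 members called higher. SNR72 read 9.30 against 6.85 and 6.60 (2.57 ± 0.60, adjusted p = 0.0136, from 0.000205 to 0.0577, not called without wild-type replicate 2, 0.0577). SNR44 was the 1 lower member, at 7.19 against 8.76 and 8.53 (-1.46 ± 0.39, adjusted p = 0.0273, from 0.00153 to 0.112, not called without wild-type replicate 1, 0.112, or wild-type replicate 2, 0.0609). Without wild-type replicate 1 or 2, 7 and 9 members were called.

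In not5, also with 1 array, 14 members were higher and 0 lower, a called share of 22.2% against 4.41% of all probe sets (3.21% higher and 1.2% lower), with a median of 0.93 and 58 of 63 differences above 0. SNR45 was higher by 3.24 ± 0.45 (adjusted p = 0.000324). SNR3 read 8.36 (2.84 ± 0.50, adjusted p = 0.00219), SNR71, a large-subunit methylation guide, read 9.55 against 7.51 and 7.32 (2.13 ± 0.35, adjusted p = 0.00109), and SNR37, a large-subunit pseudouridine guide, read 6.97 against 4.84 and 4.91 (2.10 ± 0.35, adjusted p = 0.00122). The not5 value was the highest in each of these comparisons, as in all 14 called members. Without wild-type replicate 1 or 2, 7 and 8 members were called, 8 without the arrays labelled caf130 and 29 without the not2 and not4 depletion arrays.

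The not3 null showed few differences, with 1 member higher and 1 lower, a called share of 3.17% against 2.74% of all probe sets (1.98% higher and 0.753% lower), and a median of 0.11. Quantile normalization gave 1 higher and 2 lower, and median centring 0 higher and 1 lower. SNR63 read 5.72 and 5.36 against 7.61 and 7.43 in wild type (-1.98 ± 0.36, adjusted p = 0.00735, from 0.00012 to 0.087), but was not called without not3 replicate 2 (0.0519) or wild-type replicate 1 (0.087). SNR74, a small-subunit methylation guide, read 5.23 and 6.08 against 4.14 and 4.29 (1.44 ± 0.38, adjusted p = 0.0482, from 0.0156 to 0.338) and was not called without not3 replicate 1 (0.0671), not3 replicate 2 (0.338), wild-type replicate 1 (0.244) or wild-type replicate 2 (0.143). Leaving out not3 replicate 1 or wild-type replicate 2 gave 1 call, and leaving out not3 replicate 2 or wild-type replicate 1 gave 0, and without the not2 and not4 depletion arrays there were 5.

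The exponential caf1 null had 5 members higher and 0 lower, all box C/D, a called share of 7.94% against 3.87% of all probe sets (2.74% higher and 1.14% lower), and a median of 0.41. SNR67 read 11.77 and 10.99 against 9.57 and 9.97 in wild type (1.62 ± 0.28, adjusted p = 0.00303, from 0.000644 to 0.0585, not called without wild-type replicate 1, 0.0585). The others were SNR72 at 2.20 ± 0.49 (adjusted p = 0.0182, 0.000169 to 0.146), SNR73 at 1.78 ± 0.46 (adjusted p = 0.0341, 0.00462 to 0.256), SNR75 at 1.58 ± 0.36 (adjusted p = 0.0187, 0.0034 to 0.146) and SNR71 at 1.34 ± 0.29 (adjusted p = 0.0139, 0.00453 to 0.153). Leaving out caf1 replicate 1 gave 5 calls, caf1 replicate 2 gave 1, and the wild-type arrays gave 0 (replicate 1) and 1 (replicate 2), whereas 5 other settings gave 8 to 16. The exponential arrays labelled caf130 had 0 members called by limma, against 0.707% of all probe sets (0.338% higher and 0.369% lower), 15 members had an unadjusted p under 0.05, and the median was 0.44. Differences were above 0 for 50 of the 63 members there, 51 in caf1, 46 in not2, 58 in not4 and 34 in not3. A shift to higher values was thus not particular to ccr4 and not5, and all these comparisons share the same wild-type arrays.

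After glucose depletion the not2 and not4 nulls had high values of several RNAs that were low in wild type, led by SNR72 and U14 (SNR128). SNR72 read 3.46 and 3.44 in wild type, 7.91 and 7.11 in not2 and 8.81 and 6.51 in not4. U14 read 5.51 and 5.22 in wild type, 8.77 and 8.56 in not2 and 9.78 and 7.84 in not4. Neither gene overlapped wild type in either strain, and nor did any other called member. The median gap between replicates was 0.57 in depleted not2 and 0.54 in depleted not4. In the other groups of 2 it was 0.39 or less. The ± and adjusted p come from a spread pooled over all groups. For these 2 groups, here and below, they may understate the uncertainty. SNR72 was higher by 4.06 ± 0.49 in not2 (adjusted p = 1.24e-05) and by 4.21 ± 0.49 in not4 (adjusted p = 2.08e-05), and U14 by 3.3 ± 0.40 (adjusted p = 1.09e-05) and 3.44 ± 0.40 (adjusted p = 1.79e-05).

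In depleted not2, 18 members were higher and 8 lower, a called share of 41.3% against 25.5% of all probe sets (12.9% higher and 12.7% lower), with a median of 0.31. U6 (SNR6) had the largest difference, 4.67 ± 0.68 (adjusted p = 7.43e-05), and U4 (SNR14), the snRNA that pairs with U6 before splicing, was higher by 2.88 ± 0.31 (adjusted p = 3.89e-06). SNR4, which guides acetylation of small-subunit rRNA, read 10.16 and 8.83 against 6.44 and 7.02 (2.76 ± 0.38, adjusted p = 3.79e-05). The lower members included SNR68 at 5.89 and 4.45 against 7.43 and 7.57 (-2.33 ± 0.41, adjusted p = 0.000402) and SNR77 at 8.54 and 7.86 against 10.00 and 10.17 (-1.88 ± 0.42, adjusted p = 0.00293). SNR50 at 5.78 and 5.76 (-1.79 ± 0.31, adjusted p = 0.000379) and SNR36 at 5.31 and 4.78 (-1.66 ± 0.31, adjusted p = 0.000666) were also lower, and these 4 were among the members that rose in wild type. SNR54 read 4.35 and 2.95 against 5.28 and 5.15 (-1.56 ± 0.43, adjusted p = 0.011, from 0.00156 to 0.175, not called without not2 replicate 2, 0.175, or wild-type replicate 1, 0.0714, or wild-type replicate 2, 0.0557). The 26 calls became 23, 31, 19 and 19 without not2 replicate 1, not2 replicate 2, wild-type replicate 1 and wild-type replicate 2.

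In depleted not4, 11 members were higher and 3 lower, a called share of 22.2% against 10.2% of all probe sets (5.15% higher and 5.04% lower), with a median of 0.32. U4 (SNR14) was higher by 2.57 ± 0.31 (adjusted p = 3.54e-05). SNR67 read 9.76 and 10.17 against 11.77 and 11.81 in wild type (-1.83 ± 0.28, adjusted p = 0.000445), without overlap. SNR11 was higher by 2.17 ± 0.44 (adjusted p = 0.00389, from 2.85e-05 to 0.0787, not called without not4 replicate 1, 0.0719, or wild-type replicate 2, 0.0787). SNR73 was higher by 1.82 ± 0.46 (adjusted p = 0.0166, 0.00501 to 0.188), SNR54 lower by 1.45 ± 0.43 (-1.45, adjusted p = 0.0353, 0.00351 to 0.385) and SNR50 lower by 1.26 ± 0.31 (-1.26, adjusted p = 0.0141, 0.0105 to 0.135), and these 3 were not called without not4 replicate 1 (0.188, 0.385 and 0.0824), wild-type replicate 1 (0.119, 0.18 and 0.0663) or wild-type replicate 2 (0.0871, 0.152 and 0.135). The 14 calls became 7 without not4 replicate 1, 25 without not4 replicate 2 (16 higher and 9 lower), 7 without wild-type replicate 1 or 6 where replicate 2 of wild type was left out. The replicates of these groups were far apart: 22 members differed by over 1 between the not4 depletion arrays (34.9%, against 21.4% of all probe sets) and 19 between the not2 depletion arrays (30.2%, against 21.6%). Between the other replicate pairs 0 to 10 members did so.

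In depleted caf1, with 1 array, 4 members were higher and 2 lower, a called share of 9.52% against 11.7% of all probe sets (6.81% higher and 4.9% lower), and the median was -0.05. Median centring gave 3 higher and 4 lower. SNR67 read 9.88 against 11.77 and 11.81 in wild type (-1.91 ± 0.35, adjusted p = 0.00277) and was called whichever wild-type array was left out. SNR72 at 6.08 (2.63 ± 0.60, adjusted p = 0.0116, 0.000145 to 0.0715) and SNR71 at 10.44 against 9.0 and 8.74 (1.57 ± 0.35, adjusted p = 0.0107, 0.00326 to 0.0917) were higher. So were SNR190, a box C/D snoRNA encoded beside U14, at 4.56 against 2.99 and 2.66 (1.74 ± 0.44, adjusted p = 0.018, 0.00529 to 0.128) and SNR61 at 11.06 against 10.00 and 9.95 (1.08 ± 0.31, adjusted p = 0.0332, 0.00438 to 0.151). SNR13, a box C/D guide, was lower at 5.66 against 7.52 and 7.73 (-1.96 ± 0.44, adjusted p = 0.0102, 0.000594 to 0.0792). The 6 calls became 5 without wild-type replicate 1, or 1 where replicate 2 was left out. The depletion arrays labelled caf130 had 0 members called by limma, against 0.0308% of all probe sets (0.0154% higher and 0.0154% lower), with 7 at an unadjusted p under 0.05 and a median of -0.12.

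The depletion responses of the other strains ranged from few to many lower members. In not2, 4 members rose and 4 fell, against 18% and 22.8% of all probe sets, so the called share of 12.7% was below the 40.8% over all probe sets. U4 (SNR14) rose by 1.75 ± 0.31 (adjusted p = 0.000192) and SNR67 by 1.70 ± 0.28 (adjusted p = 9.03e-05), while SNR44 fell by 1.72 ± 0.32 (-1.72, adjusted p = 0.000255) and U14 by 1.45 ± 0.40 (-1.45, adjusted p = 0.00629). The other 4, SNR7-L (1.27), SNR42 (0.98), SNR65 (-0.82) and SNR79 (-0.70), each lost their call without at least 1 array, and the 8 calls became 7, 8, 8 and 11 without exponential replicate 1, exponential replicate 2, depletion replicate 1 and depletion replicate 2. With median centring 6 rose and 2 fell, and with quantile normalization 6 rose and 4 fell.

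In not4, 1 member rose and 13 fell, a called share of 22.2% against 27.4% of all probe sets (11.9% higher and 15.5% lower), with a median of -0.43. Median centring gave 1 higher and 6 lower, and leaving out the arrays labelled caf130 gave 0 higher and 5 lower. SNR13 fell by 1.97 ± 0.44 (-1.97, adjusted p = 0.00275). SNR73 at -2.13 ± 0.56 (adjusted p = 0.00885, 0.00377 to 0.0595) and U14 at -1.72 ± 0.49 (adjusted p = 0.0131, 3.06e-05 to 0.0964) were not called without depletion replicate 2 (0.0595 and 0.0964). In caf1, 3 members rose and 18 fell, a called share of 33.3% against 27.7% of all probe sets (14.6% higher and 13.1% lower), with a median of -0.50. SNR44 fell by 3.44 ± 0.39 (-3.44, adjusted p = 6.24e-06), SNR13 by 3.38 ± 0.44 (-3.38, adjusted p = 2.26e-05) and SNR76 by 2.68 ± 0.41 (-2.68, adjusted p = 0.00012). SNR71 rose by 1.69 ± 0.35 (adjusted p = 0.00155) and the brighter SNR62 probe set by 1.77 ± 0.34 (adjusted p = 0.000812). That probe set lay below the lower quartile on 22 arrays. The other SNR62 probe set, at 2.71 and 2.41 and then 3.29, was not called. All of these caf1 responses rest on 1 depletion array. On the arrays labelled caf130, 7 members rose and 21 fell, a called share of 44.4% against 45.5% of all probe sets (21.1% higher and 24.4% lower), with a median of -0.44, and 16 calls were left without depletion replicate 1. SNR44 fell by 4.20 ± 0.32 (-4.20, adjusted p = 9.54e-09), SNR72 by 3.93 ± 0.49 (-3.93, adjusted p = 3.03e-06) and U14 by 3.22 ± 0.40 (-3.22, adjusted p = 2.47e-06), and SNR5, a pseudouridine guide, rose by 1.46 ± 0.40 (adjusted p = 0.00563).

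Compared with the wild-type response, the not2 response was higher for 4 members and lower for 5, a called share of 14.3% against 6.37% of all probe sets (2.6% higher and 3.77% lower), and the not4 response was higher for 1 and lower for 6, a called share of 11.1% against 4.66% (2.49% higher and 2.17% lower). For not2, quantile normalization gave 5 higher and 7 lower, and median centring 4 and 4. The caf1 response was lower for 2 members and higher for 0, against 2.18% of all probe sets (0.707% higher and 1.48% lower). SNR67 differed by -3.53 ± 0.45 in caf1 (adjusted p = 0.000367) and by -3.17 ± 0.45 in not4 (adjusted p = 0.000654), whichever array was left out. Only arrays of the groups of 2 were left out in turn. The single caf1 depletion array and the single not4 exponential array were never left out. Every other call in these 3 comparisons was lost without at least 1 array. The 9 not2 calls became 0 without wild-type exponential replicate 2, 1 without wild-type depletion replicate 1, 2 without not2 exponential replicate 2, 3 without wild-type exponential replicate 1 or wild-type depletion replicate 2, 5 without not2 exponential replicate 1 and 12 without not2 depletion replicate 2. The 7 not4 calls became 1 without wild-type exponential replicate 2 or wild-type depletion replicate 2, 3 without wild-type exponential replicate 1 or wild-type depletion replicate 1, and 14 without not4 depletion replicate 2, and the 2 caf1 calls became 1 without any of the arrays. For the arrays labelled caf130, limma called 0 members, against 0.0154% of all probe sets called higher and 0% called lower, with 11 at an unadjusted p under 0.05.

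The 4 snRNAs among the members, U1, U4, U5 and U6, behaved differently from each other. U2 was not among the members. U6 (SNR6) read 6.97 and 7.74 in exponential wild type and 8.14 to 10.41 on the exponential arrays of the other strains, of which not2 at 9.37 and 10.41 was called (2.53 ± 0.68, adjusted p = 0.0149, from 4.73e-05 to 0.141, not called without not2 replicate 2, 0.141, or wild-type replicate 1, 0.128). The differences in caf1 (2.41, adjusted p = 0.0519), not5 (2.11), labelled caf130 (1.72), ccr4 (1.47), not4 (1.32) and not3 (0.91) were not called. After depletion U6 read 5.01 and 5.24 in wild type, 4.91 and 5.25 in ccr4, 5.29 and 5.70 on the arrays labelled caf130, 6.76 in caf1, 10.74 and 8.86 in not2, and 8.57 and 5.41 in not4. The not2 arrays stood clear of wild type, while 1 of the 2 not4 arrays was close to it. U6 fell on depletion in wild type by 2.23 ± 0.68 (-2.23, adjusted p = 0.0149, from 3.24e-05 to 0.114) but was not called without exponential replicate 2 (0.114), depletion replicate 1 (0.0807) or depletion replicate 2 (0.054).

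U4 (SNR14) read 4.91 and 4.80 in exponential wild type, 5.96 and 6.24 in not2, 6.46 in not4 and 6.45 in not5. It was higher by 1.24 ± 0.31 in not2 (adjusted p = 0.0103), 1.60 ± 0.39 in not4 (adjusted p = 0.0154) and 1.60 ± 0.39 in not5 (adjusted p = 0.0226), but each call was lost without wild-type replicate 1 (0.0577, 0.0574 and 0.0939) or wild-type replicate 2 (0.0643, 0.0639 and 0.0826), and in not2 also without not2 replicate 2 (0.0929). Over the alternatives the adjusted p ran from 0.002 to 0.0929 in not2, from 0.00308 to 0.0639 in not4 and from 0.00395 to 0.0939 in not5. After depletion it read 4.63 and 5.31 in wild type, 7.93 and 7.76 in not2 and 7.08 and 7.99 in not4. The calls after depletion were kept whichever array was left out.

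U1 (SNR19), which recognises the start of an intron, was called in comparisons with ccr4 alone. It read 3.55 and 3.61 in exponential wild type, 5.03 and 4.69 in exponential ccr4 and 3.09 and 3.44 in depleted ccr4. It was higher in exponential ccr4 by 1.28 ± 0.25 (adjusted p = 0.00401, from 0.000866 to 0.0764, not called without ccr4 replicate 1, 0.0764) and fell there on depletion by 1.60 ± 0.25 (-1.60, adjusted p = 0.000112). The long form of U5 (SNR7-L) fell on depletion in caf1 (-1.46 ± 0.49, adjusted p = 0.0313, from 0.00513 to 0.0805, not called without caf1 exponential replicate 1, 0.0805, or 2, 0.0781) and rose in not2 (1.27 ± 0.40, adjusted p = 0.015, from 0.000426 to 0.32, not called without exponential replicate 2, 0.0671, or depletion replicate 1, 0.32). SNR19 lay below the lower quartile of the array on 11 arrays and SNR7-L on 15. The SNR7-L probe set also overlaps the short form of the same RNA.

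U3 (SNR17A), which is needed for the early cuts of the ribosomal RNA precursor, changed in ccr4. It read 5.28 and 5.43 in exponential ccr4 and 4.11 and 4.08 after depletion (-1.26 ± 0.29, adjusted p = 0.00269). In wild type it read 4.48 and 5.06 and then 5.10 and 4.78, a difference of 0.18 that was not called. The annotation places another gene, IRC13, over SNR17A, and whether the probe set also reads its transcript was not tested.

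The SNR78 to SNR72 cluster, 7 box C/D snoRNAs encoded side by side and cut from 1 precursor, did not move as a unit. In wild type SNR78 and SNR77 rose on depletion, by 1.08 and 1.90, SNR75 at -0.25 and SNR74 at -0.15 were not called, and SNR76, SNR73 and SNR72 fell, by 1.31, 1.43 and 3.28 on the log2 scale. SNR78 (adjusted p = 0.00499) was not called without exponential replicate 1 (0.0725), SNR76 (adjusted p = 0.00479) without exponential replicate 2 (0.0542) and SNR73 (adjusted p = 0.0197) without any of the 4 arrays (0.0618 to 0.105). The lowest adjusted p over the alternatives was 0.000745, 0.000326 and 0.00326 for these 3 genes. In ccr4, SNR76, SNR75, SNR74, SNR73 and SNR72 all fell, by 3.85, 1.86, 2.01, 3.13 and 3.62, and SNR78 at -0.16 and SNR77 at -0.78 were not called. In not2 no member of the cluster was called on depletion, with differences from -0.56 (SNR77) to 0.91 (SNR74). SNR78 lay below the lower quartile of every array.

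**Figure D5:**
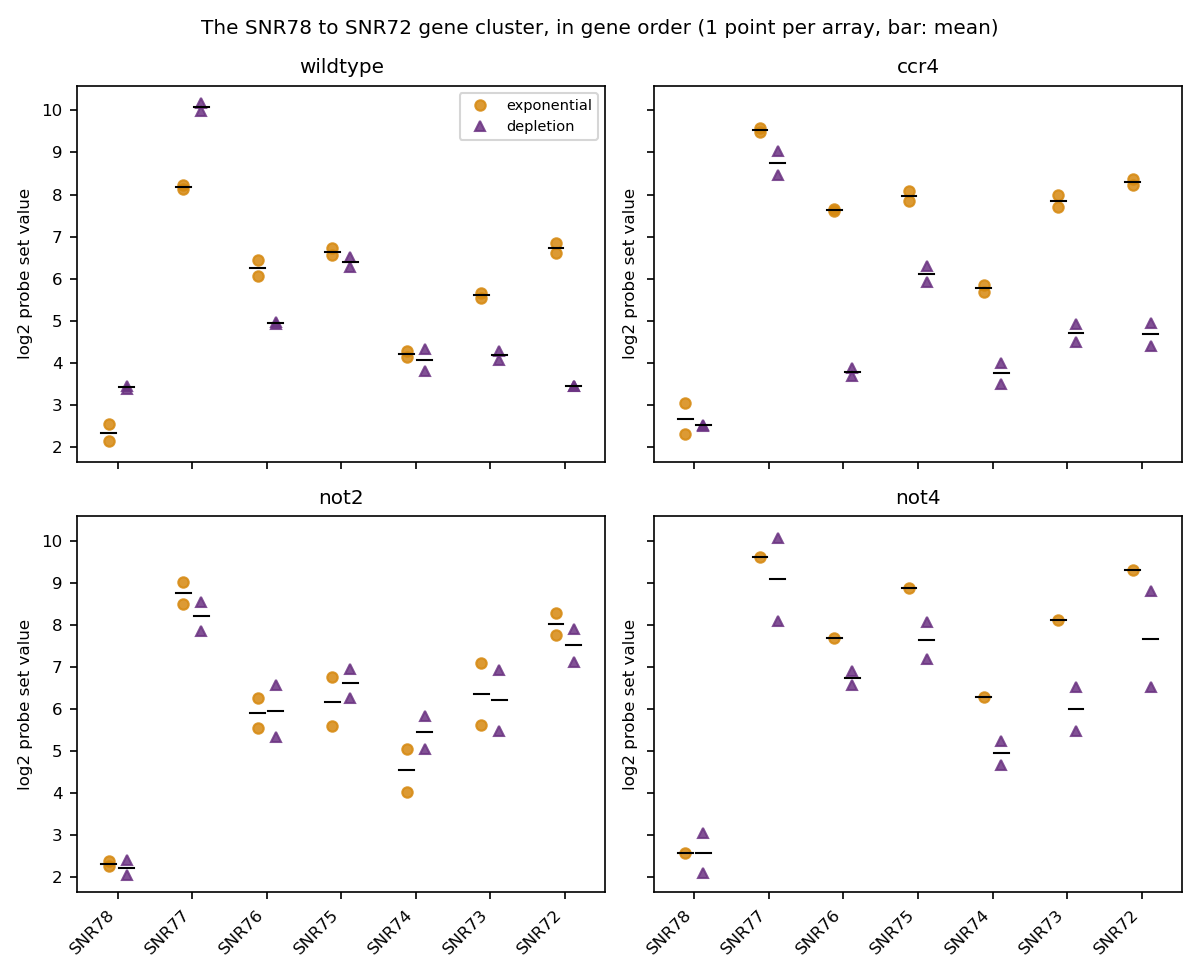
Depletion and exponential log2 values along the SNR78 to SNR72 cluster, in gene order, for wild type, ccr4, not2 and not4. In wild type SNR77 is higher and SNR72 lower after depletion, in ccr4 SNR76 to SNR72 are all lower, and in not2 none of the 7 was called.

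Other neighbours differed in some cases and fell together in others, as SNR190 and SNR128 did in ccr4. SNR190 lay below the lower quartile of the array on 12 arrays. In the pair SNR190 and SNR128, SNR128 fell in wild type while SNR190 was at -0.51 and not called, and in ccr4 SNR190 fell by 1.63 ± 0.36 (-1.63, adjusted p = 0.00207, from 0.000433 to 0.068, not called without ccr4 exponential replicate 1, 0.068). In the pair SNR67 and SNR53, SNR67 rose in wild type and fell in ccr4, while SNR53, which lay below the lower quartile on 22 arrays, was at 0.30 and -0.27 and not called. SNR57, SNR55 and SNR61 all fell in ccr4, by 2.37, 3.07 and 0.78, as did SNR41, SNR70 and SNR51, by 1.54, 2.71 and 2.08. Of these 6, SNR61 was not called without any of the 4 ccr4 arrays (0.0796 to 0.103) and SNR41 not without exponential replicate 1 (0.106) or depletion replicate 1 (0.0778).

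Among the members that lie in introns, only SNR44 moved with its host gene in wild type. All 8 host genes on the list fell in wild type, among them RPL7B (-4.01 ± 0.36, adjusted p = 1.22e-07), RPS22B (-2.61 ± 0.37, adjusted p = 1.9e-05) and TEF4 (-2.58 ± 0.28, adjusted p = 1.07e-06), taking for each gene its brightest probe set. Over all 18 probe sets of these genes 17 were lower, and 1 of RPL7A, at 0.36, was not called. Of all tested probe sets, 18.8% were called lower in wild type. SNR44 fell with RPS22B. SNR38, in TEF4, read 5.87 and 5.72 and then 6.29 and 6.16 (0.43, not called), and SNR39, in RPL7A, read 4.85 and 4.77 and then 5.19 and 5.41 (0.49, not called), while TEF4 and RPL7A fell. SNR54, in IMD4, rose by 1.23 ± 0.43 (adjusted p = 0.0285), though not without any 1 of the 4 arrays (0.0875 to 0.124), while IMD4 fell by 1.57 (-1.57).

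In ccr4, 7 of the 8 host genes fell on depletion, against 15.2% of all probe sets called lower, and NOG2 at -0.51 was not called. SNR38 (-1.06), SNR39 (-1.14) and SNR54 (-1.38) fell too, but each lost its call without at least 2 of the 4 ccr4 arrays. In exponential ccr4 SNR44 was higher by 2.04 while RPS22B, at 0.88, was not called. In depleted not2 the host IMD4 was lower by 3.51 ± 0.37 (-3.51, adjusted p = 3.18e-06) and RPL7A by 1.97 (-1.97, adjusted p = 0.0009). RPL7A and RPL7B, like RPS22B, have a near-identical copy, so the probe sets of these 3 hosts may read the copy as well, and a probe set inside an intron may also read the unspliced host transcript.

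The genes of sn/snoRNA termination, processing and nuclear surveillance were 31 in all, including the exosome. In the ccr4 depletion response 38.7% of them were called, against 35.8% of all probe sets. On depletion in ccr4 11 of the 31 rose and 1 fell (35.5% and 3.23%, against 20.6% and 15.2% of all probe sets), and the list median was 0.62 beside 0.12 over all probe sets. In wild type 1 rose and 8 fell (3.23% and 25.8%, against 18.5% and 18.8%), with a list median of -0.48 beside -0.05. In not2 0 rose and 21 fell (67.7% lower, against 22.8%), and in not4 0 rose and 16 fell (51.6% lower, against 15.5%). In wild type LHP1, which binds the ends of new RNA polymerase III transcripts, fell by 2.17 ± 0.43 (-2.17, adjusted p = 0.000583) and MTR4, the helicase of the nuclear exosome, by 2.08 ± 0.34 (-2.08, adjusted p = 8.94e-05). RNT1, the endonuclease that opens snoRNA precursors, fell by 1.57 (-1.57, adjusted p = 0.00223) in wild type and was higher in depleted ccr4 than in depleted wild type by 1.73 ± 0.37 (adjusted p = 0.00263). PCF11, a termination factor, was also higher there (1.30 ± 0.29, adjusted p = 0.00418), among 11 higher and 1 lower (35.5% and 3.23%, against 12.8% and 10.8% of all probe sets). In exponential phase 0 of the 31 were called by limma in ccr4, with 4 at an unadjusted p under 0.05, 11 were higher in not2, led by the exosome subunit gene RRP4 (2.29 ± 0.42, adjusted p = 0.00115), and 5 were higher in not4. These were 35.5% and 16.1% of the list, against 13.1% and 4.27% of all probe sets called higher. The exponential calls rested on single arrays, as 2 of the 11 in not2 and 0 of the 5 in not4 were kept whichever array was left out, and so did those of ccr4 on depletion, where 1 of the 11 was kept.

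Of the 48 genes for spliceosomal snRNP proteins, 18 rose and 1 fell on depletion in ccr4 (37.5% and 2.08%, against 20.6% and 15.2% of all probe sets), with a list median of 0.59 beside 0.12. In wild type 2 rose and 2 fell (4.17% each, against 18.5% and 18.8%), with a list median of -0.07 beside -0.05. In not2 1 rose and 13 fell (2.08% and 27.1%, against 18% and 22.8%) and in not4 1 rose and 8 fell (2.08% and 16.7%, against 11.9% and 15.5%), so the lower calls in these 2 strains were near the share of all probe sets. LSM8, a subunit of the ring that binds the end of U6, rose in ccr4 by 1.84 ± 0.34 (adjusted p = 0.00048), and YHC1, a U1 protein gene, by 1.82 ± 0.37 (adjusted p = 0.00122). In exponential phase 17 of the 48 were higher in not2, led by the U2 protein gene LEA1 (1.82 ± 0.33, adjusted p = 0.00117), which is 35.4% against 13.1% of all probe sets called higher, though 2 of the 17 were kept whichever array was left out, and 0 were called by limma in ccr4, with 10 at an unadjusted p under 0.05. Of the 9 snoRNP assembly factors, 4 rose on depletion in ccr4, led by RVB2 (1.31 ± 0.29, adjusted p = 0.00226), and 4 fell in each of not2 and not4. These 4 are 44.4% of the list, against 20.6% of all probe sets called higher in ccr4, 22.8% called lower in not2 and 15.5% called lower in not4. In wild type 1 rose, PIH1 at 1.04, which was not called without any of the 4 arrays (0.054 to 0.191). The core protein genes of the snoRNPs all fell on depletion in not2, with NOP1 at -4.41 ± 0.30 (adjusted p = 3.96e-09), in not4 and on the arrays labelled caf130, and 6 of the 7 fell in caf1. The shares of all probe sets called lower were 22.8% in not2, 15.5% in not4, 24.4% on the arrays labelled caf130 and 13.1% in caf1.

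The 2 genes with a pair of probe sets gave unequal readings. For SNR62 both probe sets rose on depletion in wild type, from 2.45 and 2.55 to 3.21 and 3.32 (0.76 ± 0.26, adjusted p = 0.0254, not called without any of the 4 arrays, 0.07 to 0.122) and from 2.31 and 2.46 to 3.65 and 3.90 (1.39 ± 0.28, adjusted p = 0.000619). For SNR39B the brighter probe set was lower in exponential not2, and the dimmer one was higher in exponential not5, at 5.52 against 4.18 and 3.0 (1.93 ± 0.46, adjusted p = 0.0217, from 0.00738 to 0.149, not called without wild-type replicate 2, 0.149). In ccr4 both SNR39B probe sets fell on depletion, by 2.44 ± 0.45 (-2.44, adjusted p = 0.000524) for the brighter and by 1.45 ± 0.38 (-1.45, adjusted p = 0.00632) for the dimmer, the latter not without ccr4 exponential replicate 2 (0.0894).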

How the data were processed

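For 25 arrays of labelled total RNA the authors deposited log2 values per probe set. They span 1.36 to 13.94, none is missing, and the log base follows from that span alone. No source used here names the software, background correction or normalization. Per the labels' protocols, RNA was extracted with acid phenol, each sample was prepared independently 2 times, the authors discarded 3 arrays, and not5 was not collected after depletion because it flocculates. Groups follow the labels.

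Gene names came from the platform annotation: 6504 of the 9275 probe sets carry 1 symbol, 328 several and 2443 none, and the latter 2 kinds were left out. All 6504 matched RefSeq R64 by Entrez number. A limma model (version 3.58.1, R 4.3.3) with 14 group means and an intensity trend was fitted to all arrays, leaving 11 residual and 7.86 prior degrees of freedom. It gave 23 comparisons, with Benjamini-Hochberg adjustment within each and a threshold of 0.05. The number of arrays limits the precision. The p-values rest on a spread between independent preparations that is pooled over the groups of 2 arrays. Groups of 1 array add none of their own. Tables were joined in pandas 2.3.3 with numpy 2.4.6 under Python 3.11.15, and matplotlib 3.10.9 drew the figures. The fit was tested on simulated data.

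The named genes are the snRNAs, the snoRNAs of pre-rRNA cleavage, intronic and clustered members, the 5 highest and 5 lowest called members per comparison whose groups do not overlap, the 5 highest and 5 lowest means, genes with several probe sets, and up to 4 called genes of each list. The lists are the box C/D and box H/ACA core proteins, snoRNP assembly factors, termination, processing and surveillance genes, spliceosomal snRNP proteins, and host genes of intronic snoRNAs. List counts take the brightest probe set of each gene, and the shares of all probe sets beside them include dim and repeated ones. The members and lists were chosen with earlier results of these data known. SNR58 was named after its values were seen. Alternatives were 1 probe set per gene, a filter on dim probe sets, quantile normalization, median centring, no intensity trend, the arrays of 1 condition, leaving out the arrays labelled caf130, a replicate block and leaving out each array. Chosen after seeing the data were restrictions on the members and leaving out the not2 and not4 depletion arrays.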

Additional observations from a re-analysis of the deposited data

Results flagged for a closer look

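Among the leading members there were 22 cases, counted by gene and strain, in which the depletion response differed from the wild-type response by limma's test of the difference of responses. In ccr4 the difference was -4.15 for SNR67, -3.13 for SNR3, -2.68 for SNR77, -2.68 for SNR36 and -2.67 for SNR33, and all 5 were called whichever array was left out. In caf1 it was -3.53 for SNR67, called whichever array of a group of 2 was left out, and -2.20 for SNR13, which was not. The single caf1 depletion array was never left out. In not4 it was -3.17 for SNR67, called whichever array of a group of 2 was left out, and -3.0 for SNR68, -2.44 for SNR77, -2.24 for SNR50, -2.05 for SNR36 and 1.86 for SNR44, which were not. The single not4 exponential array was never left out. In not2 it was -2.46 for SNR77, -2.15 for SNR68, -2.05 for SNR50, -1.82 for SNR71, -1.58 for SNR36, 1.64 for SNR14, 1.83 for SNR63, 1.92 for SNR4 and 2.77 for SNR72, and each of these 9 lost its call without at least 1 array. SNR36, SNR67 and SNR77 each appear here in 3 strains. No group holds more than 2 arrays, so no array could be tested as standing apart from its group.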

How the results depend on the processing

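Of 128 leading calls, 72 were kept without each array of the groups of 2 in turn and 103 in the other settings, and none changed direction in any setting. Leading calls between 2 groups were picked for groups that do not overlap. For them, leaving out 1 array could not change the direction. Leaving out 1 array moved the number of called members to 0 to 5 in exponential caf1, 3 to 17 in ccr4, 8 to 18 in not2, 0 to 1 in not3, 7 to 9 in not4 and 7 to 8 in not5. In depleted cells it moved to 1 to 5 in caf1, 5 to 7 in ccr4, 19 to 31 in not2 and 6 to 25 in not4. For the depletion response on the arrays labelled caf130 it was 16 to 21, and for the difference of responses 1 in caf1, 15 to 22 in ccr4, 0 to 12 in not2 and 1 to 14 in not4. With 1 probe set per gene, 9 members were called in exponential caf1 and 10 in depleted caf1. With dim probe sets left out, 9 were called in exponential caf1 and 5 in the not2 response, and with bright members only 5 in the not2 response. Without the intensity trend 8 were called in exponential caf1. With the arrays of 1 condition only, 11 were called in exponential caf1 and 1 on the exponential arrays labelled caf130, and 3 in depleted caf1, 10 in ccr4 and 9 in not4. Median centring gave 1 in exponential not3 and 7 in the not4 response, and quantile normalization gave 1 in the difference of responses of caf1. Without the arrays labelled caf130, 1 was called in exponential not3, 8 in not5 and 5 in the not4 response, and in the differences of responses 1 in caf1, 4 in not2 and 3 in not4. Without the not2 and not4 depletion arrays, whose replicates lay far apart, counts in exponential phase were 16 in caf1, 5 on the arrays labelled caf130, 34 in ccr4, 5 in not3 and 29 in not5. They were 19 in depleted caf1, and 9 in caf1 and 44 in ccr4 for the difference of responses. The replicate numbers did not pair the samples (55 correlations of same-numbered deviations, -0.58 to 0.44), and the replicate block changed 1 count, to 1 in exponential not3. Median centring shifted the median of all probe sets by -0.25 in exponential not2, 0.19 in the not2 response, -0.17 in the ccr4 response, -0.15 in exponential not4, 0.13 in the not4 response, -0.13 on the exponential arrays labelled caf130, -0.11 in exponential caf1 and 0.11 in the response of the arrays labelled caf130. The member median changed sign in 2 comparisons: the wild-type response (-0.01, and 0.02 after quantile normalization) and the not2 response (-0.03, then 0.02 after quantile normalization and 0.17 after median centring). The cause of these changes was not tested. Groups of 1 or 2 arrays limit all of these results, and 24 of the 63 probe sets lay below the lower quartile on some arrays and 2 on all.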
